A study of Homo sapiens with 20 samples.

Results

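The regions described here are the 324 stretches of chromosome 13 in the deposited ATACseq files, 3.91% of the 8286 regions of the series. They were taken by chromosome alone, with no use of their signal. They lie on GRCh38 between chr13:18276268 and chr13:114100362, are 200 to 1600 bp long with a median of 480.5 bp, and carry the authors' gene annotation: 180 regions list 1 gene, 57 list more than 1 and 87 list none. In all, 199 gene names are listed.

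The cells were HL60, an established human acute myeloid leukemia line in which all-trans retinoic acid (ATRA) sets off maturation towards neutrophils. Cells labelled HK3-null and cells expressing Cas9 as control were kept for 36 h in 1 µM ATRA or in 0.01% DMSO, and each of the 4 groups gave 2 ATACseq and 3 RNAseq libraries. The study made its lines with a lentiviral CRISPR vector and grew clones by limiting dilution. The study's methods call the replicates biological. All HK3-null libraries share the label KO-2G, and nothing says that they came from more than 1 clone, so the p values measure the spread between these samples and not between clones. HK3 encodes a hexokinase of hematopoietic cells.

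ATACseq counts the places where a transposase can cut into chromatin, so a high signal marks an open stretch such as an active promoter or enhancer. The signal is a fragment density per bulk sample, so fewer copies of the DNA per cell and less open DNA per copy cannot be told apart from it, and in RNAseq fewer cells of a type and less RNA per cell cannot be told apart. Chromosome 13 is acrocentric, and its long arm holds the retinoblastoma gene RB1, the repair gene BRCA2, the hematopoietic receptor gene FLT3 and the oncogenic microRNA host gene MIR17HG. AP-1, a dimer of FOS and JUN family proteins, binds a short palindromic site that is common in enhancers. Promoters rich in CpG dinucleotides are often open in many tissues and can be silenced by DNA methylation.

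Most regions of chromosome 13 had less signal in HK3-null than in Cas9 control libraries, and a minority went the other way. The first sequences shown are from exceptions that were called higher in HK3-null cells in DMSO and held the AP-1 letters TGANTCA. Capitals mark the match, the strand is the plus strand of GRCh38, and a match is a description of letters only. In order along the chromosome they lie in 2 intronic regions of ATP8A2 (chr13:25753320-25753386 and chr13:25873295-25873361), at a STARD13 region (chr13:33679473-33679539), in an intron of STK24 (chr13:98484985-98485051) and at LOC105370364 (chr13:110955354-110955420).
ATP8A2: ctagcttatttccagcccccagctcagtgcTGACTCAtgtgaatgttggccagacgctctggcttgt
ATP8A2, more distal: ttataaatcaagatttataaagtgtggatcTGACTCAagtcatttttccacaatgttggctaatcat
STARD13: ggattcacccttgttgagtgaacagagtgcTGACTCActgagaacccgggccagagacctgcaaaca
STK24: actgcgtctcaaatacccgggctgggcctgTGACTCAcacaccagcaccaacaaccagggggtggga
LOC105370364: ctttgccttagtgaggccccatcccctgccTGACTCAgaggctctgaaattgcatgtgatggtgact

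The second set is from CpG-rich exceptions within 1000 bp of an annotated transcript start, which for WASF3 and PCDH8 lies inside the gene. They are shown because these regions had almost no signal in Cas9 control cells. Each is the stretch of 120 bases with the most CpG dinucleotides outside annotated untranslated exons, and capitals mark each CpG. The WASF3 stretch (chr13:26557875-26557994) held 22 CpG, the PCDH8 stretch (chr13:52846345-52846464) 19 and the DNAJC15 stretch (chr13:43023631-43023750) 12.
WASF3: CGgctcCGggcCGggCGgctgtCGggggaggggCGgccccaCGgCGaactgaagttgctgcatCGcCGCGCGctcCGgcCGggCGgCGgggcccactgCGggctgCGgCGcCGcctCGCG
PCDH8: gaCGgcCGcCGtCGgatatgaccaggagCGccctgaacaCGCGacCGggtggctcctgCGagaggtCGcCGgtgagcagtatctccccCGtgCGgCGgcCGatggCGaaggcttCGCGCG
DNAJC15: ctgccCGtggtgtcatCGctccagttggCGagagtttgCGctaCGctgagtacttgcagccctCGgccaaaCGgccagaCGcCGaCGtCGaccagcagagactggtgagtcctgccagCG

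The third set is from the other end of the range, the 5 regions that were lowest in HK3-null cells in DMSO. Shown are 2 of the 3 that held the letters of C/EBP, a family of factors of granulocyte maturation. The whole region was searched, outside annotated untranslated exons, and the match nearest its middle is given. Capitals mark the match to TTGCNNAA or its reverse complement. They lie between genes at LOC105370135 (chr13:28590539-28590606) and in an intron of RASA3 (chr13:114097226-114097293).
LOC105370135: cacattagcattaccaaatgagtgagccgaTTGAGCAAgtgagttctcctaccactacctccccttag
RASA3: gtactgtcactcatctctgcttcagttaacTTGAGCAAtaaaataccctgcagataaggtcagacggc

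Some facts of the whole series bear on these regions. All 8286 deposited regions differ between HK3-null and Cas9 control libraries in ATRA, with a ratio of mean signals of at least 1.65, so the rows are a selection on that contrast and it is described here without a test. Whether the DMSO libraries took part in that selection is not stated. Rows with DMSO differences near 0 were kept, such as -0.17 on chromosome 13. The DMSO test is not independent of the selection, since the same lines were compared and its variance came from all 8 libraries. The summed signal was 345345 to 390632 in 7 libraries and 244488 in Cas9 control ATRA replicate 2, and depth is unknown for these values. Normalized RNAseq counts summed to 29056345 to 31549780 per library. HK3 RNA did not fall with the HK3-null label. In DMSO it was at 302 to 346 normalized counts under that label and 65 to 105 in Cas9 control, and in ATRA at 1285 to 1975 and 1298 to 1850, so RNA gave no check of the label. The study reports that it checked its knockout clones by DNA sequencing and by mass spectrometry of protein, without naming KO-2G. All 10 myeloid markers had at least 50 counts in every library, while the 4 T cell, 4 epithelial and 4 erythroid markers were below 50 in every library and MS4A1 of the 4 B cell markers was at 0. The B cell markers summed to 46 to 108 in Cas9 control and 147 to 194 in HK3-null libraries, with PAX5 at 0 to 2 and 70 to 119, and their part in the results was not tested.

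Across chromosome 13 the signal was lower in HK3-null cells. The median region had a signal of 50.8 and 52.4 in the Cas9 control libraries in DMSO and of 18.2 and 18.6 in the HK3-null libraries. Under ATRA, Cas9 control libraries had medians of 48.1 and 34.4, while HK3-null libraries had 12.4 and 14.4. The 2 genotypes did not overlap in either treatment. On the 17 autosomes other than 5, 6, 8, 13 and 15 the genotypes lay closer, over 4648 deposited regions. Their median signal in DMSO was 24.9 and 27.8 in Cas9 control and 23.9 and 22.5 in HK3-null libraries, which did not overlap. In ATRA it was 26.5 and 18.5 in Cas9 control and 23 and 22.3 in HK3-null libraries. The overlap in ATRA rested on Cas9 control ATRA replicate 2, the library of low summed signal. The 17 were set apart with earlier results of these data known, so they are no independent comparison.

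The median difference over the 324 regions, HK3-null minus Cas9 control on the log2(signal + 1) scale, was -1.48 in DMSO, a ratio of 0.357, and -1.69 in ATRA, a ratio of 0.309. Of these regions 280 (86.4%) were lower and 44 (13.6%) higher in ATRA, while over the whole series 45.1% were lower and 54.9% higher. All 280 lower regions were also lower in DMSO, and 42 of the 44 higher regions were also higher in DMSO. Of the lower regions, 277 had both HK3-null libraries below both Cas9 control libraries in DMSO. Every deposited row was selected on a genotype difference in ATRA, so such agreement in DMSO may hold across the series. The same counts over the series are not given here, so they are not shown to be particular to chromosome 13.

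In the test of the DMSO libraries, 258 of the 324 regions had a mean signal above 17.1, the 25th percentile of all regions, and 66 did not and were not tested. Calls were made in limma and needed a 1.5-fold difference and an adjusted p (Benjamini-Hochberg) under 0.05. On chromosome 13, 214 of the 258 (82.9%) were called lower, where 43.9% of the 6214 tested regions of the series were. A further 17 (6.59%) were called higher, against 42.7% in the series. The mean for the filter ran over all 8 libraries, so a region near 0 in 1 genotype passed it through the other. The DNAJC15 region, for example, had DMSO means of 3.53 in Cas9 control and 41.97 in HK3-null libraries. Calls and p values of such regions are therefore no independent support for their difference. The 44 regions that were higher in ATRA had less signal, with a median of 20.8 over libraries against 34.5 for the 280, and 25 of the 44 and 233 of the 280 passed the filter.

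**Figure D1:**
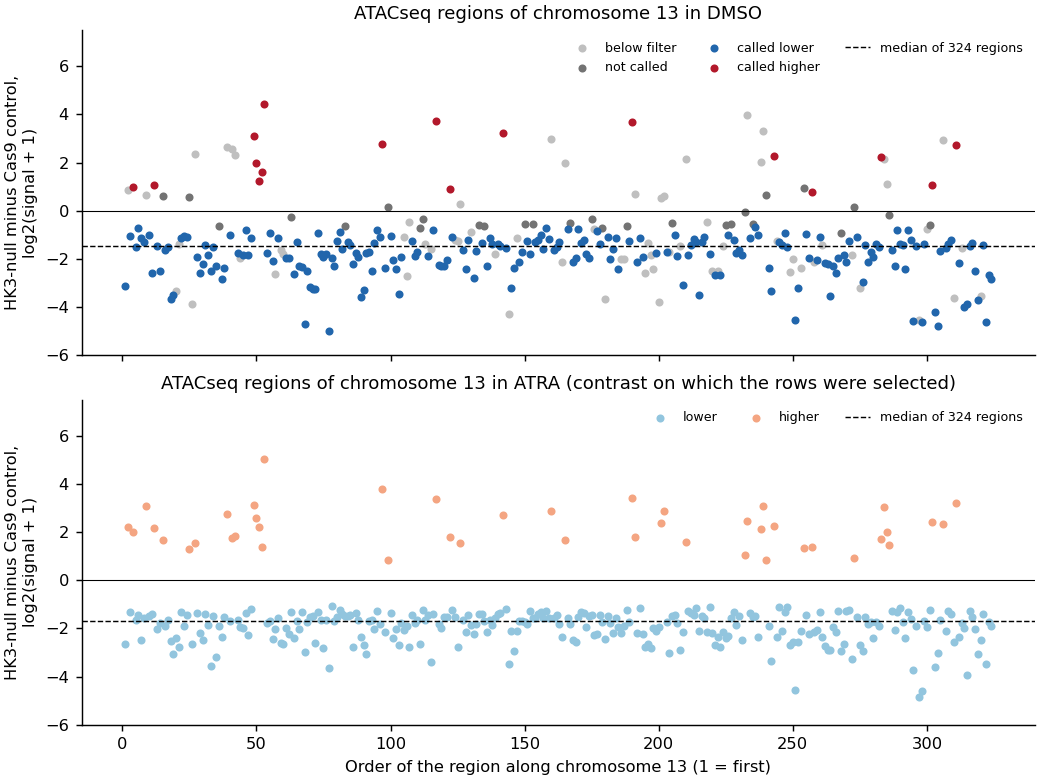
Each point is 1 of 324 ATACseq regions in order along chromosome 13 (x axis), and the y axis is the difference HK3-null minus Cas9 control in mean log2(signal + 1) of 2 libraries each, in DMSO (top) and in ATRA (bottom). Most points lie below 0 along the whole chromosome, around medians of -1.48 in DMSO and -1.69 in ATRA (dashed lines), and the higher points are scattered among them, 17 of them called in DMSO.

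The fall ran along the length of the chromosome. Cut into segments of 10 Mb, each of the 10 segments from 20 Mb on had a median difference in DMSO between -1.93 and -1.35. The 24 regions beyond 110 Mb had the lowest, at -1.93, and the 27 regions between 50 and 60 Mb the highest. The 4 regions before 20 Mb had a median of -0.09, with 2 regions lower and 2 higher.

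Regions were unevenly spread, with 84 between 20 and 30 Mb, 7 between 60 and 70 Mb and 5 between 80 and 90 Mb. Higher regions occurred in each segment and numbered 13 of the 84 between 20 and 30 Mb, 6 of 39 between 90 and 100 Mb and 1 of 24 between 70 and 80 Mb. Counted along the order of regions, 24 of the 44 stood alone between lower regions and 20 stood beside another. The longest run was 5 neighbours, formed by 3 regions of ATP8A2 and those of SHISA2 and WASF3.

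Among the lower regions alone, the 21 beyond 110 Mb had the lowest median in DMSO, at -2.51, and the 38 between 40 and 50 Mb the highest, at -1.38. This order was not that of ATRA, where the 21 had a median of -1.99, the 38 had -1.66 and the 33 between 90 and 100 Mb had the lowest, at -2.13.

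The 5 regions that were lowest in DMSO were at LOC105370135, ARHGEF7, FLT1, LOC105370359 and RASA3. Each went from a strong signal in Cas9 control libraries to one near the bottom of the scale. The intergenic region at LOC105370135 (chr13:28590399-28591069) had a signal of 115 and 104 in Cas9 control and 2.05 and 3.00 in HK3-null libraries in DMSO, a log2 difference of -4.98 (SE 0.42, adjusted p = 2.08e-12). In ATRA it had 52.8 and 35.4 in Cas9 control and 2.31 and 2.85 in HK3-null libraries. The groups lay far apart in both treatments.

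The ARHGEF7 region (chr13:111184640-111185132) lies at an annotated start of this gene, which encodes an exchange factor of RAC and CDC42 GTPases. It had 134 and 149 in Cas9 control and 3.19 and 5.38 in HK3-null libraries in DMSO, a difference of -4.78 (SE 0.40, adjusted p = 1.46e-12). A neighbouring intronic region of ARHGEF7 fell by 4.21 and a second by 1.68 on the log2 scale. The last of them, at another ARHGEF7 start (chr13:111281898-111282324), went the other way, with 1.75 and 1.5 in Cas9 control and 18.2 and 20.4 in HK3-null libraries, and its signal was below the filter. ARHGEF7 RNA had 2421 to 2882 normalized counts in Cas9 control and 2059 to 2398 in HK3-null libraries in DMSO and was not called.

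FLT1, which encodes a receptor of vascular endothelial growth factor, listed 7 regions and all 7 were called lower. The lowest (chr13:28485513-28486475, intronic) had 160 and 173 in Cas9 control and 5.97 and 5.0 in HK3-null libraries in DMSO, a difference of -4.69 (SE 0.37, adjusted p = 4.22e-13). The other 6 lay between -3.25 and -1.31. FLT1 RNA was at 2 to 3 counts in Cas9 control and at 0 in all HK3-null libraries in DMSO, too few for a fold.

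The region of LOC105370359 and LINC00676 (chr13:109731640-109732386) had 84.2 and 97.7 in Cas9 control and 3.38 and 2.07 in HK3-null libraries in DMSO, a difference of -4.64 (SE 0.43, adjusted p = 1.60e-11). LINC00676 RNA was listed at 0 in all 12 libraries.

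RASA3, which encodes a GTPase-activating protein of RAS and RAP, held the last 4 regions of the chromosome and all 4 were called lower. The lowest of them (chr13:114096913-114097765, intronic) had 79.3 and 78.9 in Cas9 control and 2.76 and 1.85 in HK3-null libraries in DMSO, a difference of -4.61 (SE 0.42, adjusted p = 1.26e-11). RASA3 RNA fell with them, from 5656 to 5997 normalized counts in Cas9 control to 3271 to 3776 in HK3-null libraries in DMSO, a log2 difference of -0.71 (SE 0.07, adjusted p = 6.89e-06). In ATRA its RNA differed by -0.46, under the fold threshold.

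The 3 regions of highest mean signal were also lower, by less. The region at chr13:113321777-113322480, listed for LAMP1 and GRTP1, lies at an annotated transcript start inside LAMP1, which spans chr13:113297239 to chr13:113323672. It had 434 and 509 in Cas9 control and 110 and 96.1 in HK3-null libraries in DMSO, a difference of -2.18 (SE 0.29, adjusted p = 3.75e-08). LAMP1 encodes an abundant lysosomal membrane protein. Its RNA overlapped between the genotypes in DMSO and had 8864 to 9837 counts in Cas9 control and 8753 to 9492 in HK3-null libraries, a difference of -0.00 (SE 0.07). The regions of LINC00426 and LINC00563 differed by -0.78 and -0.73 (adjusted p = 0.0147 and 0.0235). Both calls were lost when any of 3 DMSO libraries was left out, Cas9 control replicate 1 or either HK3-null replicate, with adjusted p up to 0.0973 and 0.157, and that of LINC00563 also when libraries were centred on the other autosomes (0.0744). LINC00426 RNA was also called lower, with 58 to 81 counts in Cas9 control and 30 to 42 in HK3-null libraries in DMSO (adjusted p = 0.0014).

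The exceptions to the general fall were 44 regions that were higher in HK3-null libraries in ATRA, with a median difference of 1.80 in DMSO and 2.15 in ATRA. In 37 of them the genotypes did not overlap in either treatment. The rows were selected on the ATRA contrast and the share over the series is not given, so this count is no support for the exceptions. The 10 largest of these, by the mean of both treatments, are described next, and they were chosen by these values.

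The region at an annotated transcript start inside WASF3 stood highest. WASF3 encodes a member of the WAVE family, which drives actin branching. Its region (chr13:26557287-26558131) had a signal of 3.35 and 5.0 in Cas9 control and 114 and 107 in HK3-null libraries in DMSO, a log2 difference of 4.45 (SE 0.38, adjusted p = 2.48e-12). In ATRA it had 1.92 and 2.55 in Cas9 control and 101 and 111 in HK3-null libraries.

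WASF3 RNA followed. It was at 7, 0 and 0 normalized counts in Cas9 control libraries in DMSO and at 568, 534 and 419 in HK3-null libraries (adjusted p = 0.000615). In ATRA it was at 0 in all 3 Cas9 control libraries and at 312, 289 and 184 in HK3-null libraries, at least 87.2-fold higher than the floor of 3 counts per library. WASF3 lists no other region on the chromosome.

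The DNAJC15 promoter (chr13:43023416-43024024) belongs to a gene for a cochaperone of the mitochondrial inner membrane. It had 3.95 and 3.11 in Cas9 control and 42.5 and 41.5 in HK3-null libraries in DMSO, a difference of 3.25 (SE 0.42, adjusted p = 3.29e-08). DNAJC15 RNA was at 2, 1 and 0 counts in Cas9 control and at 644, 610 and 609 in HK3-null libraries in DMSO (adjusted p = 0.00553), and at 0, 1 and 4 against 621, 621 and 553 in ATRA (adjusted p = 0.006). No library of one genotype came near the other.

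PCDH8, a protocadherin gene of cell adhesion, spans chr13:52842889 to chr13:52848640. Its region (chr13:52846092-52846530) lies near an annotated transcript start inside the gene. The region had 6.64 and 3.00 in Cas9 control and 69.2 in both HK3-null libraries in DMSO, a difference of 3.67 (SE 0.40, adjusted p = 6.60e-10). PCDH8 RNA stayed low but separate, at 2, 1 and 2 counts in Cas9 control and 21, 20 and 23 in HK3-null libraries in DMSO. Its call there depended on the value written for 0, with adjusted p = 0.15 in the main fit and 9.14e-06 on the log2(count + 1) scale. In ATRA the call was made in the main fit (adjusted p = 0.000911).

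RUBCNL, listed under its older name KIAA0226L and coding for a regulator of autophagy, spans chr13:46334681 to chr13:46390042. Its region at an annotated start inside the gene (chr13:46387153-46387452) had 1.33 and 3.44 in Cas9 control and 22.3 and 27.6 in HK3-null libraries in DMSO. Its mean signal was below the filter. RUBCNL RNA was at 8, 4 and 4 against 26, 22 and 22 counts in DMSO, where the main fit made no call (adjusted p = 0.469) and the log2(count + 1) fit did (0.00662). A second region (chr13:46389998-46390564), which overlaps the outer boundary of the gene at chr13:46390042, went the other way. It was called lower, from 122 and 130 to 43.2 and 36.5.

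STARD13, which encodes a GTPase-activating protein, had its exception (chr13:33679206-33679704) at 2.20 and 4.10 in Cas9 control and 65.7 and 43.1 in HK3-null libraries in DMSO, a difference of 3.75 (SE 0.44, adjusted p = 4.16e-09). Of the other 2 STARD13 regions 1 was called lower (-0.80) and 1 had a difference of -1.59 and a signal below the filter. STARD13 RNA was at 29 to 36 counts in Cas9 control and 15 to 36 in HK3-null libraries in DMSO and was not called.

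ATP8A2 and ATP11A encode flippases, which move phospholipids between the leaflets of a membrane. ATP8A2 had 3 intronic regions called higher and 1 called lower. The highest (chr13:25744143-25744679) had 9.25 and 7.12 in Cas9 control and 75.1 and 80.3 in HK3-null libraries in DMSO, a difference of 3.11 (SE 0.42, adjusted p = 5.73e-08). The 2 regions with the AP-1 letters shown above differed by 1.99 and 1.25. ATP8A2 RNA was at 0 to 1 counts in Cas9 control and 2 to 4 in HK3-null libraries in DMSO, too few to test.

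The ATP11A region (chr13:112767993-112768467, intronic) had 3.20 and 9.53 in Cas9 control and 46.5 and 39.8 in HK3-null libraries in DMSO, a difference of 2.73 (SE 0.42, adjusted p = 5.59e-07). ATP11A RNA went the other way by less than the fold threshold, with 3385 to 3689 against 2874 to 3117 counts (log2 difference -0.26, SE 0.08).

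The remaining 3 of the 10 list GPC5, a glypican gene, or no gene. The GPC5 region (chr13:92309060-92309411) had 0 and 2.0 in Cas9 control and 14.8 and 17.5 in HK3-null libraries in DMSO, with its mean below the filter, and GPC5 RNA was at 0 in all 6 DMSO libraries. A region between genes (chr13:89379256-89379604) had 3.36 and 0 against 32.6 and 31.3, also below the filter. A region in an intron of HMGB1 (chr13:30565632-30566081) had 3.50 and 3.00 against 28.9 and 26.8 in DMSO, a difference of 2.76 (SE 0.43, adjusted p = 9.00e-07), and was higher still in HK3-null libraries in ATRA, at 60.7 and 74.1.

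**Figure D2:**
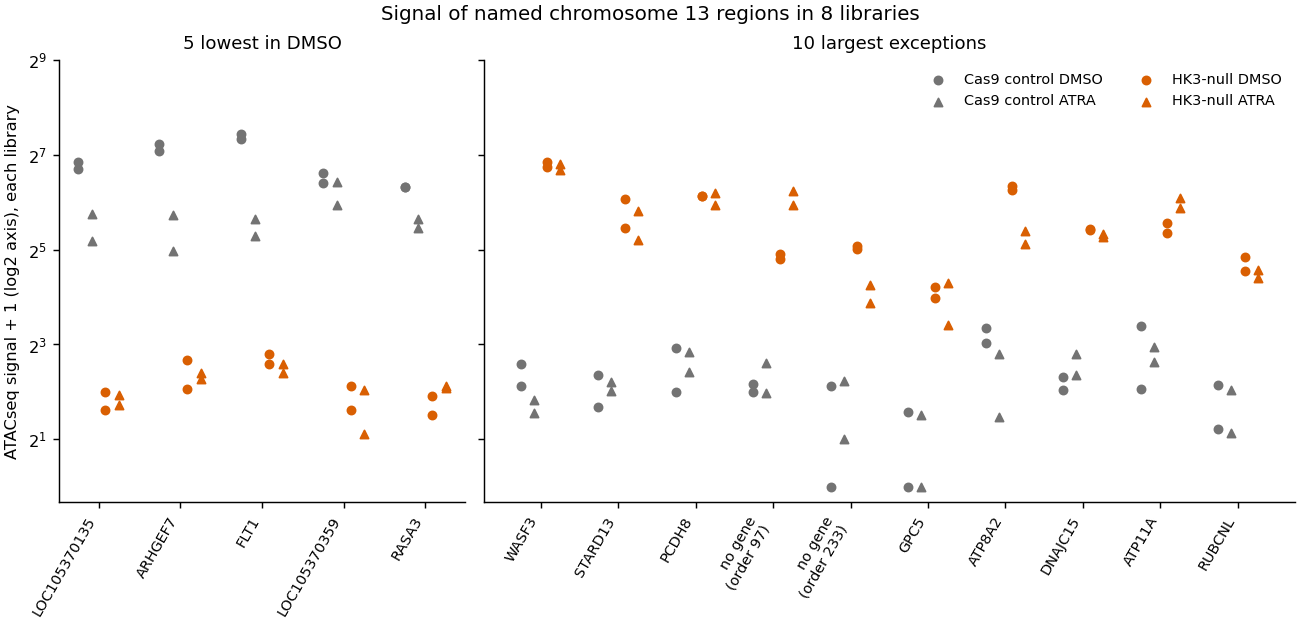
The y axis is the ATACseq signal + 1 of each library on a log2 axis, for the 5 regions lowest in HK3-null cells in DMSO (left) and the 10 largest exceptions (right), with the gene listed for each region on the x axis. Circles are DMSO and triangles ATRA, grey Cas9 control and orange HK3-null, and in each region the 4 grey and 4 orange points do not overlap.

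Just inside the ratio on which the rows were chosen, the weakest lower region of chromosome 13 had a 2.17-fold and the weakest higher region a 1.79-fold ratio of mean signals in ATRA. The least certain exceptions were 2 regions that were above 0 in ATRA and slightly below it in DMSO, at -0.07 and -0.17. In some exceptions 1 library carried the rise. The MBNL2 exon region had 108 in HK3-null ATRA replicate 1 and 20.2 in replicate 2.

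The exceptions more often held AP-1 letters and a high CpG ratio than the lower regions did, here and in the whole series, and no test was made. Median GC content was 45.8% in higher and 46.4% in lower regions. Of the 44 higher regions 10 (22.7%) lay within 1000 bp of an annotated transcript start, 4 overlapped exons, 19 were intronic and 11 intergenic. Of the 280 lower regions 39 (13.9%) lay at a start, 14 overlapped exons, 126 were intronic and 101 intergenic. Over the whole series 26.0% of higher and 20.3% of lower regions lay at a start.

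A CpG observed-to-expected ratio of at least 0.6 was found in 8 of 44 higher regions (18.2%) and 18 of 280 lower regions (6.43%), against 21.0% and 10.6% in the series. The 8 were regions at annotated starts of WASF3, PCDH8, DNAJC15, RUBCNL, KLF12, SHISA2 and NBEA and the MBNL2 exon, with a median difference of 2.57 in DMSO. The 10 higher regions at a start had a median of 2.98, while the 19 intronic ones had 1.12 and the 11 intergenic ones 0.99. Among lower regions the medians were -1.76 at starts, -1.65 in introns and -1.70 between genes.

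AP-1 letters were searched in the central 300 bp of the regions long enough, which were 310 on chromosome 13 and 7734 in all. TGANTCA, which is its own reverse complement, was in 16 of 43 higher windows (37.2%) and 15 of 267 lower windows (5.62%). In the whole series it was in 18.1% of windows, 26.7% of the higher and 7.80% of the lower. None of the 7 CpG-rich exceptions that were long enough for the search held these letters, the RUBCNL region being too short, and 20 of the 44 exceptions had neither feature. The 16 with the letters had a median difference of 0.88 in DMSO, and the 27 without had 2.14.

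For the other letters searched the shares were closer or went the other way. The C/EBP letters were in 9 of 43 higher (20.9%) and 64 of 267 lower windows (24.0%), with 18.4% in all windows of the series. The PU.1 letters GAGGAAGT were in 2 higher and 27 lower windows (8.92% in the series), the RUNX letters TGTGGTT in 5 and 37 (13.5%), and the SP1 letters GGGGCGGGG in 0 and 3 (4.94%), each counted on both strands.

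In both genotypes more regions of chromosome 13 were called lower than higher in ATRA, as in the whole series. In Cas9 control cells 44 of 258 regions (17.1%) were called lower and 5 (1.94%) higher in ATRA. These shares were near the 15.6% and 2.54% of the series. In HK3-null cells 51 (19.8%) were called lower and 9 (3.49%) higher, where 11.8% and 5.04% of the series were. The ATRA libraries took part in the choice of rows, so these counts come from a selected set.

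The counts in Cas9 control depended on single libraries and on scaling. Without Cas9 control ATRA replicate 2, the library of low summed signal, 16 were called lower and 3 higher. Without Cas9 control DMSO replicate 1 or 2, 26 and 20 were called lower and 1 higher each, and without ATRA replicate 1, 1 was called higher. After quantile normalization 31 were called lower and 17 higher and the median ATRA difference went from -0.41 to -0.03, beside -0.30 and 0.01 over all tested regions, so no general fall in ATRA is stated for Cas9 control.

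In HK3-null cells the median difference was -0.44, or -0.35 after quantile normalization, beside -0.17 and -0.08 over all tested regions. Leaving out HK3-null ATRA replicate 1, DMSO replicate 1 or DMSO replicate 2 left 24, 27 and 31 called lower. The 9 called higher became 3 without any one of the 4 HK3-null libraries and 5 without either Cas9 control ATRA library. In both genotypes 24 regions were called, 25 in Cas9 control only and 36 in HK3-null only.

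No region of chromosome 13 passed the test of the difference between these ATRA effects at an adjusted p under 0.05 (limma, 0.274% of all tested regions did), so regions called in 1 genotype are not shown to respond differently. At an unadjusted p under 0.05 there were 32 (12.4%), against 11.2% of all tested regions. With a pseudocount of 5 there were 4, without Cas9 control ATRA replicate 1 there were 2, and without HK3-null ATRA replicate 1 or 2 there was 1.

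The largest ATRA fall in Cas9 control was at LOC105370359 (chr13:109704925-109705671, intronic), from 261 and 250 in DMSO to 59.2 and 57.6 in ATRA, a log2 difference of -2.11 (adjusted p = 2.5e-06). The same region fell in HK3-null cells from 111 and 107 to 16.8 and 20.3, by 2.50 (adjusted p = 5.38e-08). All 4 groups were apart, with HK3-null below Cas9 control in each treatment. A gene-free region upstream of CLDN10 (chr13:95418941-95419374) fell in both genotypes as well, from 129 and 126 to 42.1 and 20.4 in Cas9 control and from 48.2 and 45.9 to 4.86 and 7.29 in HK3-null libraries.

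The largest ATRA fall in HK3-null cells was at a gene-free region (chr13:30047440-30047927), from 46.9 and 57.6 to 3.73 and 5.67, a difference of -3.24 (adjusted p = 7.99e-09). In Cas9 control it went from 170 and 190 to 59.0 and 36.8, a difference of -1.92 (adjusted p = 5.69e-05). A region at MIR4703 (chr13:51552048-51552435) fell by 2.67 on the log2 scale in HK3-null cells and by 1.29 in Cas9 control. At the exception of LOC105370364 (chr13:110955119-110955570) signal fell in Cas9 control from 24.6 and 31.3 to 9.0 and 3.86 (log2 difference -2.04, adjusted p = 0.000174), and went from 56.7 and 60.7 to 48.9 and 26.9 in HK3-null libraries, a difference of -0.68 that was not called.

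The largest ATRA rise in Cas9 control was at a region in UBAC2, a gene of a ubiquitin-associated endoplasmic reticulum protein, also listed for FKSG29 and MIR623 (chr13:99356246-99356738). It went from 11.8 and 9.75 in DMSO to 75.3 and 61.7 in ATRA in Cas9 control, a difference of 2.56 (adjusted p = 8.48e-05). In HK3-null libraries it went from 6.0 and 4.56 to 4.63 and 13.6, where the groups overlapped. UBAC2 RNA was at 2990 to 3439 counts in DMSO and 2755 to 3141 in ATRA in Cas9 control, a difference of -0.15 that was not called.

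The other rises were less secure. Those at SPATA13 (chr13:24276348-24276608) and at a gene-free region (chr13:104114051-104114788) in Cas9 control, by 1.45 and 1.27, lost their call when any Cas9 control library was left out. In HK3-null cells those near KLF5 (1.93) and at a SPATA13 start (1.30) had adjusted p of 0.0137 and 0.035. The KLF5 value became 0.58 without HK3-null DMSO replicate 2 and the SPATA13 value 0.66 without HK3-null ATRA replicate 1. The KLF5 call was also lost with either rescaling, and both were lost when either Cas9 control ATRA library was left out.

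**Figure D3:**
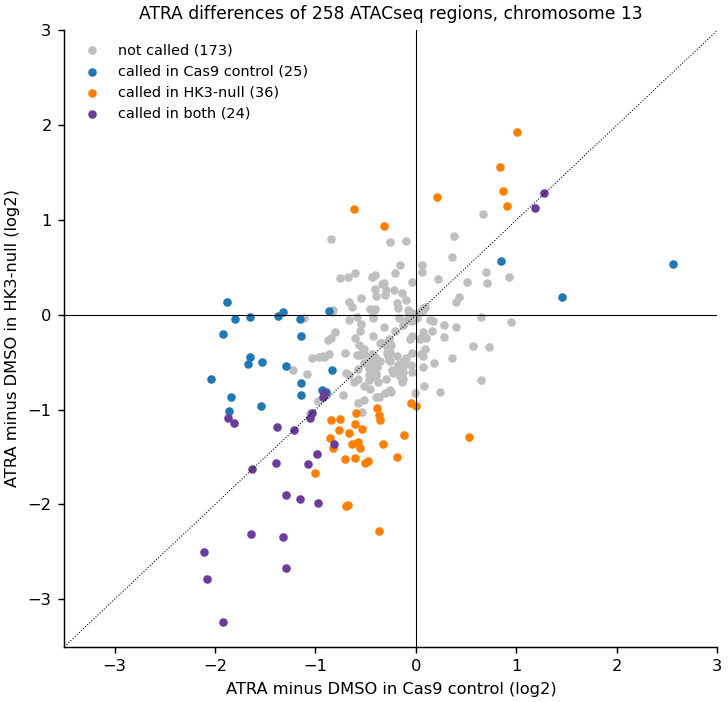
Each point is 1 of 258 tested ATACseq regions of chromosome 13, with its log2 difference ATRA minus DMSO in Cas9 control on the x axis and in HK3-null on the y axis (means of 2 libraries each) and a dotted line where both are equal. Called regions lie mostly at the lower left, 24 of them called in both genotypes, and few lie above 0 on either axis.

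RNAseq took no part in the choice of regions. Of the 199 listed names, 149 had an RNAseq entry, 4 of them through a newer symbol, and 31 were at 0 in all 12 libraries. In 82 the mean log2 value of at least 1 group was above 3, and these were tested. Genes near 0 in Cas9 control, such as WASF3 and DNAJC15, thus passed this filter through the HK3-null libraries. In DMSO 33 of the 82 (40.2%) were called lower in HK3-null cells and 6 (7.32%) higher, where 14.7% and 17.4% of the 13256 tested genes were. In ATRA 33 were called lower and 7 higher, where 17.6% and 18.8% of all tested genes were. The median log2 difference was -0.53 in DMSO and -0.44 in ATRA, beside 0.00 and 0.01 over all tested genes.

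Genes of chromosome 13 that no region lists had values of the same order. Of 162 such tested genes, 69 (42.6%) were called lower and 11 (6.79%) higher in DMSO, with a median of -0.60. Over all 243 tested genes of the chromosome, 102 were called lower and 17 higher in DMSO and 108 and 16 in ATRA, with a median of -0.57 in both. Most of these falls lay between 1.5-fold and 2-fold, and with a threshold of 2-fold 28 were called lower and 17 higher in DMSO. When each library was centred on the median of the other autosomes, the median over all tested genes of the series moved to -0.13 in DMSO, that of chromosome 13 was -0.70, and 125 were called lower and 17 higher.

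The genes of chromosome 13 took 1.98% to 2.06% of the normalized counts in Cas9 control libraries, 1.45% to 1.47% in HK3-null libraries in DMSO and 1.51% to 1.53% in ATRA. The genotypes did not overlap. By 10 Mb segment, the RNA medians in DMSO lay between -0.68 and -0.28 in 9 of the 11 segments. The segments from 60 to 70 Mb and from 80 to 90 Mb held only 3 and 2 tested genes, with medians of -2.16 and 1.84.

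**Figure D4:**
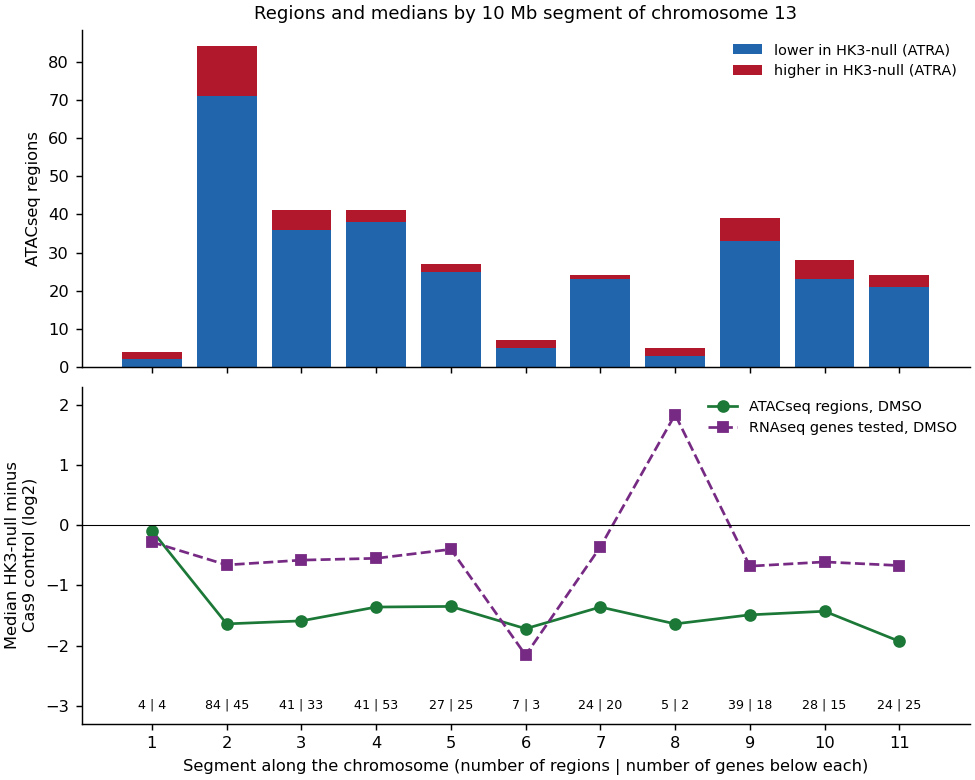
The x axis numbers the 10 Mb segments along chromosome 13, from 10 to 120 Mb. The top panel counts ATACseq regions that were lower (blue) or higher (red) in HK3-null cells in ATRA, and the bottom panel gives the median log2 difference HK3-null minus Cas9 control in DMSO of the regions (circles) and of the tested RNAseq genes of the same segment (squares), with the numbers of each printed below. The ATACseq medians are between -1.93 and -1.35 from the second segment on, and the RNAseq medians lie below 0 except in segment 8, which holds 2 genes.

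Set beside the mean DMSO difference of their regions, 71 of the 82 tested genes had regions that were lower on average, and of these 32 were called lower in RNA, 3 higher and 36 neither. The other 11 had regions that were higher on average, and of these 3 were called higher in RNA, 1 lower and 7 neither. The 3 were WASF3, DNAJC15 and SHISA2, the last at 0 to 1 counts in Cas9 control and 12 to 14 in HK3-null libraries. Among the 66 tested genes listed only by regions lower in ATRA, 43.9% were called lower and 4.55% higher in DMSO. This was near the 42.6% and 6.79% of tested chromosome 13 genes that no region lists. Of the 16 listed by a region higher in ATRA, 25% were called lower and 18.8% higher.

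The deepest RNA fall among listed genes was that of MBNL2, which encodes a regulator of alternative splicing. It had 101, 137 and 149 counts in Cas9 control and 0, 1 and 0 in HK3-null libraries in DMSO (adjusted p = 0.000239). In ATRA it had 122 to 179 in Cas9 control and 0 in all 3 HK3-null libraries, at least 49.3-fold lower when set at the floor of 3 counts. A region at an annotated start inside the gene (chr13:97222041-97222507) went from 133 and 145 to 7.13 and 3.50 in DMSO, a log2 difference of -4.53 (SE 0.38, adjusted p = 1.82e-12). Of the other 4 MBNL2 regions 3 were lower and the exon region named above was not called.

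SPATA13, which encodes an exchange factor of RAC1 and CDC42, listed 11 regions, the most of any gene. Of its 10 tested regions 9 were called lower in DMSO, between -2.85 and -1.41. The eleventh, in an exon, was higher and below the filter. SPATA13 RNA was at 960, 1084 and 770 counts in Cas9 control and 184, 242 and 159 in HK3-null libraries in DMSO, a difference of -2.27 (SE 0.27, adjusted p = 2.35e-05). It fell further in ATRA, to 488, 553 and 305 in Cas9 control and 50, 58 and 33 in HK3-null libraries.

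GAS6-AS1, an antisense RNA of the growth arrest gene GAS6, fell from 227 to 269 counts to 27 to 39 in DMSO, a difference of -2.91 (SE 0.23, adjusted p = 1.14e-06). Its 3 regions, which also list TMEM255B, had differences of -3.72 to -2.51, with 1 below the filter. TMEM255B RNA, of a membrane protein, went the other way with the same regions, from 48 to 60 counts to 104 to 107 in DMSO (1.03, SE 0.26, adjusted p = 0.00645), and had no difference in ATRA (-0.00, SE 0.26). The libraries were directional, but whether the counting used strand is not given in the sources used here.

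B3GLCT, a glucosyltransferase gene listed under the older symbol B3GALTL, fell from 228 to 331 counts to 90 to 112 in DMSO (-1.51, SE 0.14, adjusted p = 4.54e-06). FRY, which encodes a microtubule-associated protein, rose from 1023 to 1363 counts to 3013 to 4216 in DMSO (1.57, SE 0.20, adjusted p = 4.56e-05), although its 2 intronic regions had less signal, with differences of -1.70 and -0.73, the second not called. FRY-AS1, its antisense RNA, was called higher in DMSO (1.27, adjusted p = 0.0219), and that call was lost without Cas9 control DMSO replicate 1 or 3 or without HK3-null DMSO replicate 1 or 2, with adjusted p up to 0.0895.

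RAB20, a small GTPase of endosomes and phagosomes, rose under ATRA in both genotypes. In Cas9 control it went from 593, 467 and 461 counts in DMSO to 1126, 979 and 790 in ATRA (0.92, SE 0.14). In HK3-null libraries it went from 145, 130 and 154 to 1106, 1036 and 930 (2.84, SE 0.14). The genotypes were apart in DMSO and overlapped in ATRA. Its region (chr13:110524508-110525109, intronic) moved the other way under ATRA, from 112 and 119 to 42.3 and 31.5 in Cas9 control and from 79.4 and 74.6 to 12.7 and 17.1 in HK3-null libraries.

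Under ATRA, 9 of the 82 listed genes (11%) were called lower and 7 (8.54%) higher in Cas9 control, where 7.79% and 11.2% of all tested genes were. In HK3-null cells 18 (22%) were called lower and 8 (9.76%) higher, where 12.9% and 13.6% of all tested genes were. The difference between the 2 ATRA responses passed the test for 11 of the 82, where 9.12% of all tested genes did. With the replicate number as a block 28 of the 82 passed, where 21.9% of all tested genes did in that fit.

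TBC1D4, a RAB GTPase-activating protein of glucose transporter traffic, fell in both, from 1759 to 1930 counts to 698 to 828 in Cas9 control (-1.25, SE 0.10) and from 1135 to 1205 to 252 to 323 in HK3-null libraries (-2.02, SE 0.10). N4BP2L1 was not called in Cas9 control, with 177 to 259 and 232 to 316 counts, and fell in HK3-null cells from 285 to 354 to 88 to 102 (-1.72, SE 0.17, adjusted p = 6.06e-06). RCBTB2 rose in both, by 1.06 and 1.02 (SE 0.15 each). EFNB2, which encodes an ephrin ligand, was called higher in HK3-null cells, from 25 to 34 counts to 90 to 128 (adjusted p = 0.0146), while in Cas9 control 1 DMSO library stood at 116 and the others at 19 and 25.

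**Figure D5:**
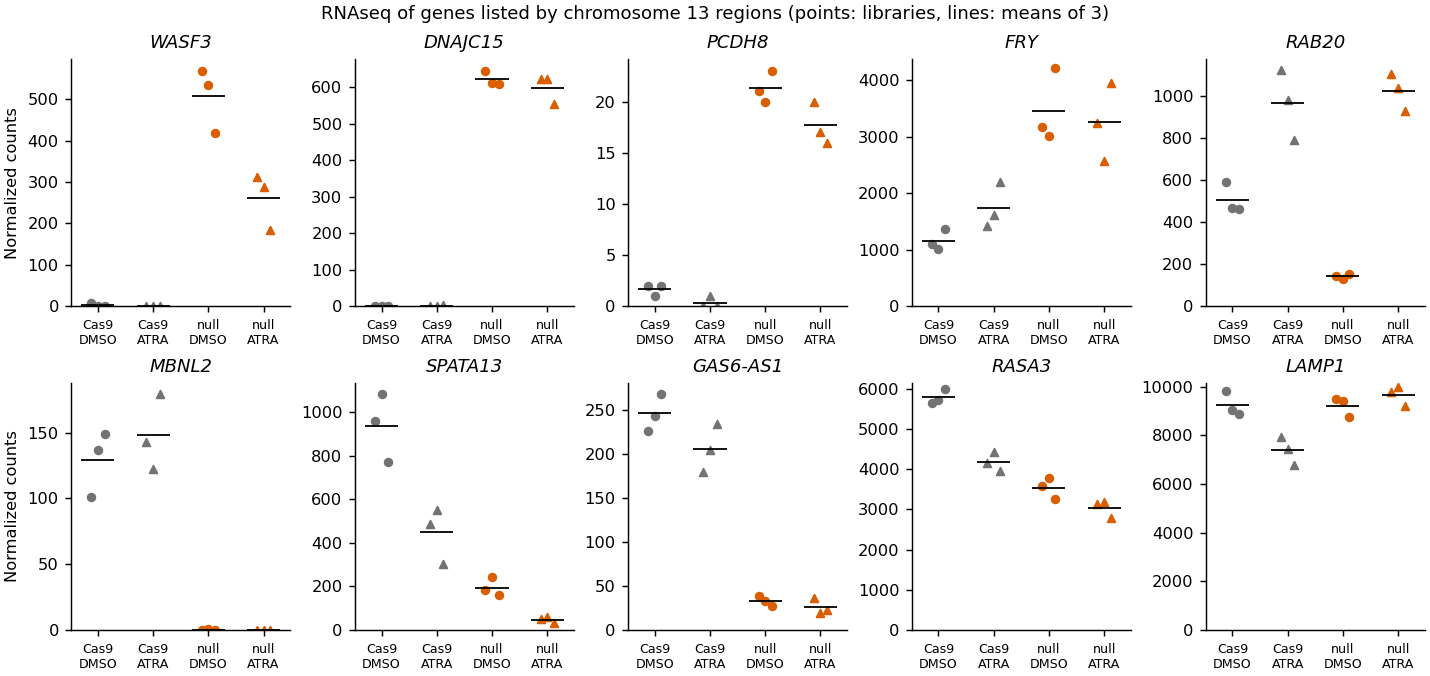
Each panel shows 1 gene listed by chromosome 13 regions, with normalized RNAseq counts on a linear y axis from 0, points for the 3 libraries of each group and a line at their mean. WASF3, DNAJC15 and PCDH8 are near 0 in Cas9 control and higher in HK3-null libraries, MBNL2 is the reverse, SPATA13, GAS6-AS1 and RASA3 are lower in HK3-null libraries, and LAMP1 overlaps in DMSO.

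Genes of chromosome 13 were also grouped by function, whether or not a region lists them, and their counts are to be read against the 42.0% called lower and 7.0% called higher of all tested genes of the chromosome in DMSO, and the 14.7% and 17.4% of all tested genes of the series. Of 24 genes of the cell cycle, DNA repair and replication, all tested, 13 (54.2%) fell in DMSO, 1 (4.17%) rose and 10 were not called, with a median of -0.61. At a threshold of 2-fold 0 were called lower and 1 higher. The repair gene BRCA2 went from a mean of 1869 to 1054 counts (-0.82, SE 0.12), the ubiquitin ligase scaffold CUL4A from 7192 to 4064 (-0.83, SE 0.06), the E2F partner TFDP1 from 19740 to 11350 (-0.80, SE 0.05) and the kinetochore gene SKA3 from 2816 to 1631 (-0.79, SE 0.07), each a mean of 3 libraries.

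The retinoblastoma gene RB1 was not called, with means of 2177 and 1865 (-0.22, SE 0.14). CCNA1, which encodes the germline and leukemia cyclin A1, was the 1 that rose, from a mean of 18.7 to 500.3 counts in DMSO (4.75, SE 0.31, adjusted p = 2.18e-07) and from 5.0 to 179.7 in ATRA (5.28). No region of the deposited set lists it. Under ATRA it fell in both genotypes, by 2.01 in Cas9 control and 1.48 in HK3-null cells.

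Of 22 mitochondrial, proteostasis and metabolic genes 21 were tested, and in DMSO 11 (52.4%) fell, DNAJC15 alone (4.76%) rose and 9 were not called, with a median of -0.60. At a threshold of 2-fold 4 were called lower and 1 higher. SUCLA2, a subunit of succinyl-CoA ligase, went from 2430 to 1210 counts (-1.01, SE 0.09). The mitochondrial ribosomal gene MRPS31 went from 1302 to 624.7 (-1.07, SE 0.12) and the proteasome maturation gene POMP from 4939 to 2490 (-0.99, SE 0.08). TPT1, the translationally controlled tumour protein gene, was not called (-0.23, SE 0.06).

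Of 22 blood and immune genes 17 were tested, and in DMSO 2 (11.8%) fell, 3 (17.6%) rose and 12 were not called, with a median of -0.30, shares near those of all tested genes of the series. At a threshold of 2-fold 1 was called lower and 3 higher. TNFSF13B, the B cell activating factor gene, fell from 1766 to 719.0 counts (-1.30, SE 0.10, adjusted p = 1.03e-06), and the lysophosphatidic acid receptor gene LPAR6 from 134.3 to 83 (-0.69, SE 0.18). The cell cycle regulator RGCC rose from 74.0 to 290.7 (1.98, SE 0.59) beside WASF3 and GPR18, the last a receptor at 14.3 counts or fewer in each group. FLT3 had means of 1276 and 1274 (-0.00, SE 0.07), while 2 of its 3 regions were called lower, at -1.98 and -2.61. ALOX5AP, which activates leukotriene synthesis, rose under ATRA from 2821 to 22980 in Cas9 control (3.03, SE 0.05) and from 2020 to 26590 in HK3-null cells (3.72).

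Of 8 transporter genes 5 were tested, and in DMSO SLC7A1 and SLC46A3 (40%) fell, a share near that of the chromosome, and 3 were not called. At a threshold of 2-fold 1 was called lower. The cationic amino acid transporter SLC7A1 went from 13100 to 6794 counts (-0.95, SE 0.17). SLC46A3 was near 0 in HK3-null libraries, with a mean of 0.67 against 10.7.

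In ATRA 13 cell cycle and 11 mitochondrial genes were called lower and 1 of each higher, and 5 of 17 blood and immune genes were called lower and 2 higher. In that contrast 44.4% of all tested genes of the chromosome were called lower and 6.58% higher, and 17.6% and 18.8% of those of the series. Against DMSO, ATRA lowered 1 of 24 cell cycle genes in Cas9 control, lowered 3 and raised 2 of 21 mitochondrial genes, and lowered 2 and raised 2 of 17 blood and immune genes, where 7.79% of all tested genes of the series were called lower and 11.2% higher. In HK3-null cells it lowered 2 cell cycle genes, lowered 3 and raised 1 of the mitochondrial genes, and lowered 2 and raised 3 of the blood and immune genes, where the shares were 12.9% and 13.6%. Of the 5 transporter genes 2 were called lower in each of these contrasts. MIR17HG, which is in none of these groups and was picked after its values were seen, had 1230 to 1673 counts in Cas9 control and 579 to 844 in HK3-null libraries in DMSO. Its 3 regions differed by -1.02 to -0.53.

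Chromosomes 5 and 15 also had less signal and less RNA in HK3-null cells. Of the 728 deposited regions of chromosome 5, 90.5% were lower in ATRA, and of the 606 of chromosome 15, 96.0%, against 86.4% on chromosome 13. Their lower regions had median DMSO differences of -1.71 and -1.68, beside -1.70 on chromosome 13, and -1.91 for the lower regions of the 17 other autosomes. Their tested genes had RNA medians of -0.75 and -0.94 in DMSO, with 58.6% and 65.7% called lower, where chromosome 13 had -0.57 and 42.0%. Whether chromosome 13 differs from these 2 was not tested.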

How the data were processed

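RNAseq (12 libraries) and ATACseq (8 libraries) files of HL60 cells were analysed. The members, the gene lists and the autosomes used for comparison and centring were chosen with earlier results of these data known. For RNAseq, the authors deposited log2 values, read here as normalized counts, with 0 written as log2 of 0.001. The methods text names RPKM, but raising 2 to the values gave whole numbers (100% of those below 1000, within 0.01). Unscaled counts were not used here, so no count test was run. ATACseq reads were, per the methods, aligned with BWA. The authors then called peaks with MACS2, merged them and deposited a fragment density signal per region on GRCh38, with libraries reduced to equal fragment numbers. Depth of the signal is unknown. The 330 entries without a gene name (at most 0.00926% of counts) were left out.

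Signals were analysed as log2(signal + 1) for regions with a mean above 17.1, and RNAseq as deposited for genes with a group mean log2 above 3. Both were fitted over the whole table with limma 3.58.1 in R 4.3.3 (lmFit, eBayes with trend, 1 mean per group, two-sided, Benjamini-Hochberg) and checked on simulated data. Calls needed a 1.5-fold change beside an adjusted p below 0.05, and interactions the adjusted p alone. Regions were annotated with GENCODE 44 and sequences read from GRCh38 in Python 3.11.15. Coordinates are as in the files and counted from 1.

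Named regions were the 5 lowest and 5 highest in DMSO among called ones, the 10 largest exceptions by the mean of both treatments, the 3 largest ATRA rises and falls per genotype and the 3 of highest signal, each except the last with non-overlapping groups. Named genes were those listed by them, the 5 largest RNA rises and falls in DMSO and the 5 largest ATRA changes per genotype with a group mean of at least 50 counts, and 4 function lists. Other regions are given where a named gene lists them. Same-numbered RNAseq libraries tended to deviate together (18 pairs, r 0.187 to 0.63 over 10663 genes, different numbers -0.641 to 0.282). The 2 ranges overlap, so the numbers may pair the libraries. RNAseq values are from the fit without the replicate number as a block, unless the block is named. Alternatives were another pseudocount, no filter, quantile normalization, centring on other autosomes, a 2-fold threshold, the replicate block and leaving out each library. Some items withheld from this text are not reported here.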

Additional observations from a re-analysis of the deposited data

Results flagged for a closer look

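The test of the difference between the genotypes in their ATRA response passed an adjusted p of 0.05 (limma) for the RNA of 11 of 82 listed genes, where 9.12% of all tested genes passed. With the replicate number as a block 28 passed, where 21.9% of all tested genes did. Given as the log2 ATRA change in HK3-null minus that in Cas9 control, it was lowest for N4BP2L1, at -2.08 (adjusted p = 0.000276), and was -0.92 for TSC22D1, -0.77 for TBC1D4 and -0.69 for TNFSF13B. It was -0.58 for SLC25A15, a mitochondrial ornithine carrier, -0.51 for ABCC4, an efflux transporter, and -0.42 for TMTC4. It was above 0 for LAMP1 (0.39), DNAJC3 (0.49), DLEU7 (1.07) and RAB20 (1.92, adjusted p = 0.000164). ABCC4 fell in both genotypes, by 0.75 and 1.26 in size, while LAMP1 fell by 0.32 in Cas9 control and differed by 0.07 in HK3-null cells, neither past the fold threshold. Groups of 2 or 3 libraries were too small for a test of single outlying libraries.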

How the results depend on the processing

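The fall of chromosome 13 regions in HK3-null cells in DMSO kept its count within 1.5 times under every alternative, with 189 to 218 called lower and 14 to 19 higher when a library was left out. With no filter on low signal 30 were called higher. The ATRA counts were less stable. In Cas9 control those called higher went from 5 to 9 with a pseudocount of 5, 10 with no filter, 11 when centred and 17 after quantile normalization, with 1 to 6 higher and 16 to 54 lower when a library was left out. In HK3-null cells leaving out a library gave 24 to 60 lower and 3 to 8 higher. The ATACseq interaction gave 4 with a pseudocount of 5 and 0 to 2 when a library was left out. The cause was not tested. For listed genes a threshold of 2-fold left 16 lower in DMSO and 21 in ATRA, and for ATRA 5 lower and 2 higher in Cas9 control and 9 lower and 5 higher in HK3-null cells. Genes whose regions list 1 gene alone, a smaller set by construction, gave 18, 18 and 11 lower in DMSO, in ATRA and for ATRA in HK3-null cells, and 6 interactions. Leaving out a library gave 33 to 35 lower and 4 to 7 higher in DMSO, 32 to 34 and 7 to 9 in ATRA, 8 to 10 and 6 to 7 for ATRA in Cas9 control, 14 to 19 and 7 to 9 in HK3-null cells, and 9 to 12 interactions. The replicate block gave 28 RNAseq interactions in place of 11 and moved no other count by over 1.5 times. In ATACseq, same-numbered libraries did not deviate together (r -0.209 to 0.054), so the block shares only a number. With it 214 were called lower and 18 higher in DMSO. Segments of 5 Mb with at least 5 regions reached a highest median of -0.61. Of 77 results for named regions and genes, 60 kept their side of the threshold under all alternatives and 0 reversed. Signal depth was unknown, so the counting error of regions of low signal could not be estimated.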
